A study of Mus musculus with 6 samples.

Results

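The genes described here are 10 transcription factors of the early response, Egr1, Egr2 and Egr3 of the EGR family, Klf2, Klf4, Klf6 and Klf10 of the KLF family, and Nr4a1, Nr4a2 and Nr4a3 of the NR4A family. They were found by their mouse gene symbols among the 49315 genes of the deposited count table, and all 10 had a row. The libraries came from wild-type RAW264.7 cells, a macrophage-like mouse line, kept for 24 h in 4 μg/mL SKI-II or in an equal volume of DMSO, the vehicle, with 3 libraries in each group. SKI-II, a compound described as an inhibitor of sphingosine kinases, is the treatment, and every result below compares the SKI-II libraries with the DMSO libraries. The labels do not say whether libraries of a group came from separate cultures; the methods describe biological replicates for the PCR assay, whose treatment and extraction the sequencing followed. The p-values measure the spread between these 3 libraries per group. There is a single time point, and in bulk RNA a change in every cell cannot be told apart from a larger change in some of the cells.

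EGR proteins are zinc finger factors that bind GC-rich DNA and are made within minutes after a growth or stress signal, and the corepressors NAB1 and NAB2 limit their activity. KLF proteins have related zinc fingers and bind GC or CACCC boxes. In myeloid cells KLF2 and KLF4 are known to restrain inflammatory genes, while KLF6 is known to favour them, and KLF10 was described as a gene induced by TGF-beta. NR4A proteins are orphan nuclear receptors that bind DNA alone or with a retinoid X receptor partner, are induced quickly by inflammatory signals in macrophages, and in the case of NR4A1 are needed for patrolling monocytes. Induction of these families is known to run through SRF and its ELK partners at CArG boxes, MEF2 at its own A and T rich box, and CREB at sites with a TGACG core.

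The start regions of 5 of these genes are shown because they hold, or lack, these 3 kinds of site and because these genes include the 4 that passed the test. Each run is RefSeq sequence of GRCm38.p6, read 5′ to 3′ on the strand of the gene, and ends at the RefSeq start site or, where an exon of another transcript begins earlier, just before that exon. Capitals mark a CArG box, a MEF2 box or TGACG on either strand (CGTCA where it lies on the other strand). The Klf2 run is chr8:72318812-72319032 (plus strand), that of Klf4 is chr4:55532476-55532725 (minus strand), that of Klf6 is chr13:5861239-5861481 (plus strand), that of Egr2 is chr10:67537619-67537868 (plus strand), and that of Nr4a1 is chr15:101266596-101266845 (plus strand).
Klf2: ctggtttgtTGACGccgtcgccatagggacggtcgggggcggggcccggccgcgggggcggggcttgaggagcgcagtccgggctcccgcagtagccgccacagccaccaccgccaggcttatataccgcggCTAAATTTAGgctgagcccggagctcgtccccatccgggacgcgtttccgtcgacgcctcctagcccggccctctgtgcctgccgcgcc
Klf4: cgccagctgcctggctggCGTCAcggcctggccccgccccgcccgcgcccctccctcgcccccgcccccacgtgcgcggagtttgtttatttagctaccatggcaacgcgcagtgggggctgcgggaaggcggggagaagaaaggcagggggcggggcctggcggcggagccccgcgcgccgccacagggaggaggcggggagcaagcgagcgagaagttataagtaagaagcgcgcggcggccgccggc
Klf6: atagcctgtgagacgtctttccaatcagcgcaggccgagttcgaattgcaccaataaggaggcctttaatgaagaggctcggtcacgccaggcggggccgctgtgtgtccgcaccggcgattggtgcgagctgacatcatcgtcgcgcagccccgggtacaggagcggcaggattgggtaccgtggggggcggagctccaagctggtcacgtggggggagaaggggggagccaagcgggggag
Egr2: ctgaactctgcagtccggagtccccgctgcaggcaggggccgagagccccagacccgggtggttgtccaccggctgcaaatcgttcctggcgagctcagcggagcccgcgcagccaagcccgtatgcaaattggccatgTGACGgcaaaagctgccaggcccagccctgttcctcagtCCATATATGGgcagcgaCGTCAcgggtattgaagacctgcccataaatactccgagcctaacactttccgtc
Nr4a1: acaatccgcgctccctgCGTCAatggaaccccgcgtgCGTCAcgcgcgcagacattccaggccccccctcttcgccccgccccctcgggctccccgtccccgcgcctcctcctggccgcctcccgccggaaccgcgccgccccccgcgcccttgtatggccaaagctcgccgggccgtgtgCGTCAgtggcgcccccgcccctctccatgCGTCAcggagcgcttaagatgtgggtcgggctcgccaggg

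The runs differ in these sites. In windows of 300 bases around RefSeq start sites, from 250 bases before the start to 50 after it, 7 of the 10 factors had a window that was used. Positions are counted in bases from the start site, and for Egr2, which has several RefSeq starts, from the start at which the printed run ends. A MEF2 box stood at -118 in Klf2 and at -167 in Nr4a2, and 3.19% of 32851 windows of all genes hold one. A CArG box stood at -72 in Egr2 (1.63% of all windows). The run before the first Egr2 exon, chr10:67535249-67535474, held GC boxes but no CArG box and no TGACG. The shares are per window, and Egr2 had several windows. TGACG occurred in the windows of 6 of the 7, all but Klf6 (20.8% of all windows), among them 4 times in Nr4a1, at -233, -213, -69 and -40, and at -111 and, as CGTCA, at -55 in Egr2. The full palindrome TGACGTCA, which contains that core, was in none of the 7 (1.79% of all windows). The EGR motif GCGGGGGCG was in the windows of Klf2, Klf4 and Nr4a1 (2.91%), and the GC box GGGCGG was in all 7 (35.7%). The NR4A motif AAAGGTCA was in none (1.51%). All motifs were searched on both strands. TGACNNNGC, the antioxidant response element, matched in Egr2, Klf6, Nr4a2 and Nr4a3 (12.4% of all windows), and TGATGNAA, the CHOP and ATF4 element, matched in none of the 7 (3.97%). The TGACNNNGC matches of Egr2, Nr4a2 and Nr4a3 overlap a TGACG match, and the GCGGGGGCG matches of Klf2, Klf4 and Nr4a1 overlap a GC box. A match describes the letters only, and no binding was measured.

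The libraries held 12495957 to 17223480 counts with DMSO and 14213950 to 20050677 with SKI-II, and 12274 genes had enough counts for a test. Macrophage genes were expressed in every library. With SKI-II, 2 of 14 macrophage markers rose (14.3%, against 18.4% of all tested genes) and 5 fell (35.7%, against 19.7%). The other 7 did not pass the test. The summed level of the 14 lay between 9813 and 12990 CPM (counts per 1000000 counts of the library) with DMSO. With SKI-II it lay between 6386 and 8837. Lyz2, the lysozyme gene, made up 55.3% to 68% of that sum with DMSO and 23.3% to 43.4% with SKI-II, and the other 13 markers summed to 4077 to 4651 CPM with DMSO and 4567 to 5001 with SKI-II, ranges that overlap and show no lower sum. The 6 epithelial markers, Epcam among them, were at 0 in all 6 libraries. The 7 fibroblast markers summed to 0.464 to 1.04 CPM with DMSO and 0.418 to 1.3 with SKI-II, with Lum and Thy1 at 0. The 6 T cell markers summed to 6.16 to 7.15 and 11.4 to 14.7 CPM, with Cd3g and Cd8a at 0 and only Lck reaching 10 counts in any library. The share of counts in the top 10 genes (6.68% to 8.79% with DMSO, 9.08% to 11.1% with SKI-II) and that of the mitochondrial chromosome (1.07% to 1.25% and 1.38% to 1.71%) were higher in every SKI-II library, and the part of Lyz2 and of these shares in the results below was not tested. For the deposited counts the genome build, annotation and use of strand were not given in the sources used here. In the GENCODE M21 annotation of GRCm38 no other gene on either strand overlaps any of the 10 factors.

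Of the 10 factors, 9 had enough counts for the test and Nr4a3 did not. In edgeR's quasi-likelihood test, with p-values adjusted by the Benjamini-Hochberg method over all 12274 genes, 4 of the 9 were called, with an adjusted p below 0.05 (44.4%, against 38.0% of all tested genes), so the share called was near the background. Klf2, Klf4 and Klf6 rose (3 of 9, against 18.4% of all tested genes) and Egr2 fell (1 of 9, against 19.7%). Of the 9, Klf2 and Klf4 also rose past a log2 fold change of 1 (2 of 9, against 8.28% of all genes) and Egr2 fell past -1 (1 of 9, against 7.44%), 3 in all against 15.7%. The median log2 fold change of the 9 was 0.19, and that of all tested genes was 0.00. The families differed in their counts, with 3 of 4 KLF genes higher, 1 of 3 EGR genes lower and neither of the 2 tested NR4A genes called. The median log2 fold changes were 1.06 for KLF, -0.25 for EGR and 0.34 for NR4A. The plot of normalized counts by library gives the values behind these calls.

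**Figure D1:**
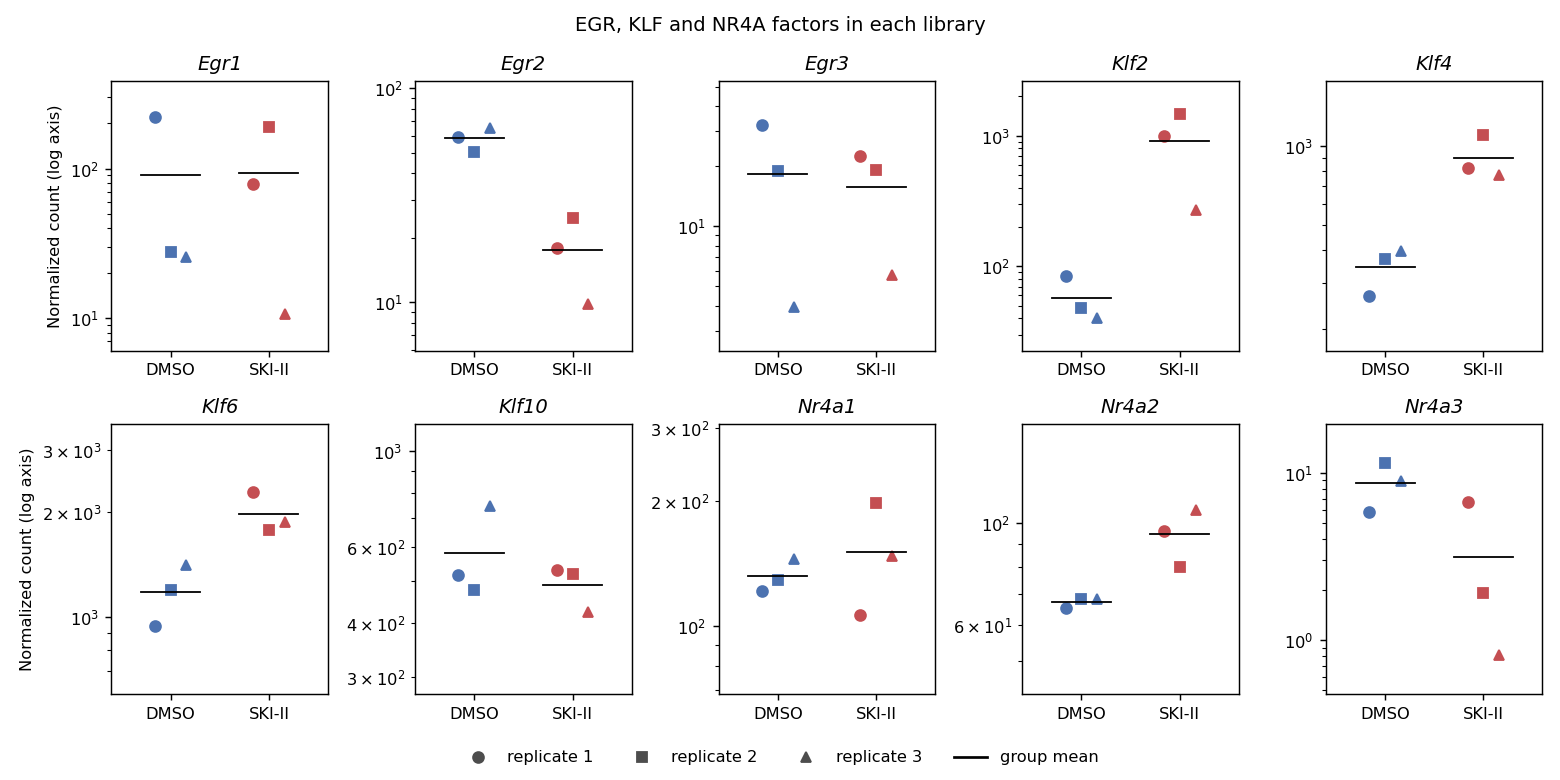
Normalized counts of the 10 factors (log axis, a separate scale for each gene) in each of the 3 DMSO (blue) and 3 SKI-II (red) libraries, with symbols for the replicate number and a line at the group mean. The groups stand apart in Klf2, Klf4, Klf6 and Nr4a2, with SKI-II higher, and in Egr2, with SKI-II lower; in the other 5 they overlap.

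Klf2 had the largest change of the 10. Klf2 lies at chr8:72319033-72321656 in GRCm38. In normalized counts, which are counts scaled to a mean library of 16042438, Klf2 stood at 84.5, 48.0 and 40.6 in DMSO replicates 1, 2 and 3 and at 999, 1457 and 270 in SKI-II replicates 1, 2 and 3. Every SKI-II library was above every DMSO library, and SKI-II replicate 3 was far below the other SKI-II libraries. The means were 57.7 ± 23.5 (SD, n = 3) and 909 ± 599 (SD, n = 3), a fitted 15.6-fold difference. The log2 fold change was 3.96 with a standard error of 0.54 and a 95% interval of 2.76 to 5.17 (adjusted p = 0.000546, edgeR's quasi-likelihood test), which ranked 57th from the top among the 12274 tested genes. With 1 library left out at a time it lay between 3.45, without SKI-II replicate 2, and 4.40, without SKI-II replicate 3.

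Klf4, known in macrophages for its part in alternative activation, rose less but more evenly. Klf4 (chr4:55527143-55532466) stood at 266, 369 and 397 normalized counts with DMSO and at 824, 1095 and 773 with SKI-II. The lowest SKI-II library was well above the highest DMSO library. The means of 344 ± 68.9 and 897 ± 173 (SD, n = 3 each) were 2.61-fold apart, with a log2 fold change of 1.38 (standard error 0.19, 95% interval 0.96 to 1.81, adjusted p = 0.000483).

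Klf6, a zinc finger factor linked to inflammatory gene activation in macrophages, had the highest level per length of exon of the 10 with DMSO and rose by the smallest factor of the 3. Klf6 (chr13:5861482-5870394) stood at 941, 1188 and 1407 normalized counts with DMSO and at 2271, 1767 and 1871 with SKI-II. The groups did not overlap. Its log2 fold change was 0.74 (standard error 0.17, 95% interval 0.37 to 1.11, adjusted p = 0.00633), a 1.67-fold difference between means of 1179 ± 233 and 1970 ± 266 (SD, n = 3 each). Klf10 (chr15:38291463-38300706) stood apart from the other 3 KLF genes in not passing the test. It stood at 516, 476 and 746 normalized counts with DMSO and 531, 519 and 424 with SKI-II. The groups overlapped, and the log2 fold change was -0.24 with a 95% interval of -0.66 to 0.18 (adjusted p = 0.35, edgeR's quasi-likelihood test).

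Egr2, an EGR factor known in myeloid and lymphoid cells as well as in Schwann cells, was the 1 factor that fell. Egr2 (chr10:67535475-67542188) stood at 59.2, 50.5 and 65.4 normalized counts with DMSO and at 17.9, 24.8 and 9.78 with SKI-II. Every SKI-II library was below every DMSO library, on raw counts of 61, 40 and 66 against 16, 26 and 12. The means were 58.4 ± 7.44 and 17.5 ± 7.52 (SD, n = 3 each), 3.36-fold lower with SKI-II. The log2 fold change was -1.75 (standard error 0.37, 95% interval -2.58 to -0.91, adjusted p = 0.00497, edgeR's quasi-likelihood test) and lay between -2.10 and -1.44 with 1 library left out at a time.

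Egr1, the best known immediate early gene of the family, varied more between libraries of a group than between the groups. Egr1 (chromosome 18) stood at 220, 27.8 and 25.7 normalized counts with DMSO and at 79.4, 189 and 10.6 with SKI-II. DMSO replicate 1 and SKI-II replicate 2 were the high libraries and SKI-II replicate 3 was the lowest of all 6. The means were 91.3 ± 112 and 93.0 ± 89.9 (SD, n = 3 each), with a log2 fold change of 0.00 and a 95% interval of -2.08 to 2.08 (adjusted p = 0.999). At this spread, values across that wide interval were compatible with the data. The fitted value took either sign when 1 library was left out, from -1.07 without SKI-II replicate 2 to 1.78 without DMSO replicate 1. Egr3 (chr14:70077203-70082614), a related factor of lower level, was also uneven. It stood at 32.1, 19.0 and 3.96 normalized counts with DMSO and at 22.4, 19.1 and 5.70 with SKI-II, and replicate 3 was the low library in both groups. Its log2 fold change was -0.25 with a 95% interval of -1.78 to 1.28 (adjusted p = 0.802, edgeR's quasi-likelihood test) and was 0.46 without DMSO replicate 1.

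Neither of the tested NR4A genes passed the test. Nr4a1 (chr15:101254269-101274795), also known as Nur77, stood at 121, 129 and 145 normalized counts with DMSO and at 106, 198 and 147 with SKI-II. The groups overlapped, since SKI-II replicate 1 was below all DMSO libraries, and the log2 fold change was 0.19 with a 95% interval of -0.36 to 0.75 (adjusted p = 0.571, edgeR's quasi-likelihood test). Nr4a2 (chr2:57106830-57124003), also known as Nurr1, stood at 65.1, 68.2 and 68.3 with DMSO and at 96.2, 80.2 and 107 with SKI-II. All SKI-II libraries of Nr4a2 were above all DMSO libraries, but the log2 fold change of 0.49, with a 95% interval of -0.03 to 1.01, missed the threshold (adjusted p = 0.124, edgeR's quasi-likelihood test), as it did in the 13 alternatives run, with adjusted p-values of 0.102 to 0.291. Nr4a3 (chr4:48045153-48086447), also known as NOR1, had 6, 9 and 9 raw counts with DMSO and 6, 2 and 1 with SKI-II, 24 against 9 over the groups. The groups of Nr4a3 overlapped at SKI-II replicate 1. Its scaled ratio, SKI-II over DMSO, was 0.335 with an exact 95% counting interval of 0.137 to 0.746, which covers counting error only and not the spread between libraries. Without SKI-II replicate 1 the ratio was 0.156 (counting interval 0.03 to 0.512, on 3 counts with SKI-II), and without SKI-II replicate 3 it was 0.486 (0.189 to 1.12). With no filter on low counts, edgeR's quasi-likelihood test gave it an adjusted p of 0.186, and DESeq2 gave 0.272.

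Over the 9 tested factors, 4 had SKI-II libraries that were all above the DMSO libraries (Klf2, Klf4, Klf6 and Nr4a2), against 24.8% of all tested genes, and 1 had them all below (Egr2), against 25.5%. That makes 5 of 9 without overlap, against 50.3% of all tested genes. For these 5 the two-sided exact permutation test over libraries gave p = 0.1, the smallest it can give with 3 libraries against 3.

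**Figure D2:**
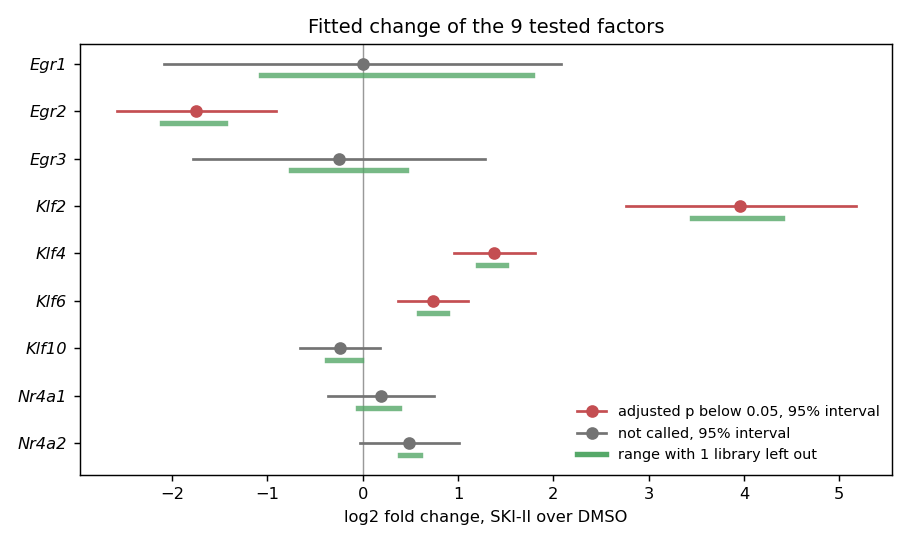
Log2 fold change (SKI-II over DMSO) of the 9 tested factors from edgeR's quasi-likelihood fit, with the 95% interval as a thin line and, below it in green, the range with 1 library left out at a time. Red points, the called genes, are Egr2 at -1.75, Klf2 at 3.96, Klf4 at 1.38 and Klf6 at 0.74; the intervals of the grey points, the others, span 0, and that of Egr1 is the widest.

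The factors differed widely in their spread between libraries of a group. Within a group, the SD of log2 CPM, pooled over both groups, was 1.86 for Egr1, the 2nd largest of the 12274 tested genes. It was 1.12 for Egr3, which ranked 48th, and 0.98 for Klf2, which ranked 107th. The median over all tested genes was 0.22 and the 90th percentile was 0.53, so these 3 were above that percentile and the other 6 were below it. The other 6 lay between 0.15, for Nr4a2, and 0.44, for Egr2. The highest library of Egr1 was 8.56 times the lowest with DMSO and 17.8 times the lowest with SKI-II, while for Nr4a2 these ratios were 1.05 and 1.33. For Klf2 they were 2.08 and 5.40. SKI-II replicate 3 was the lowest library of its group for 6 of the 9 factors (66.7%), for 18 of 40 other early response genes (45%) and for 36.2% of all tested genes. DMSO replicate 3 was the highest of its group for 6 of the 9 factors (66.7%), for 22 of the 40 early response genes (55%) and for 42% of all tested genes. SKI-II replicate 3 was also the deepest library, with 20050677 counts, and had the largest shares of counts in its top 10 genes (11.1%, against 9.08% and 9.48% in the other SKI-II libraries) and on the mitochondrial chromosome (1.71%, against 1.38% and 1.46%). The part of these properties in the low values was not tested.

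**Figure D3:**
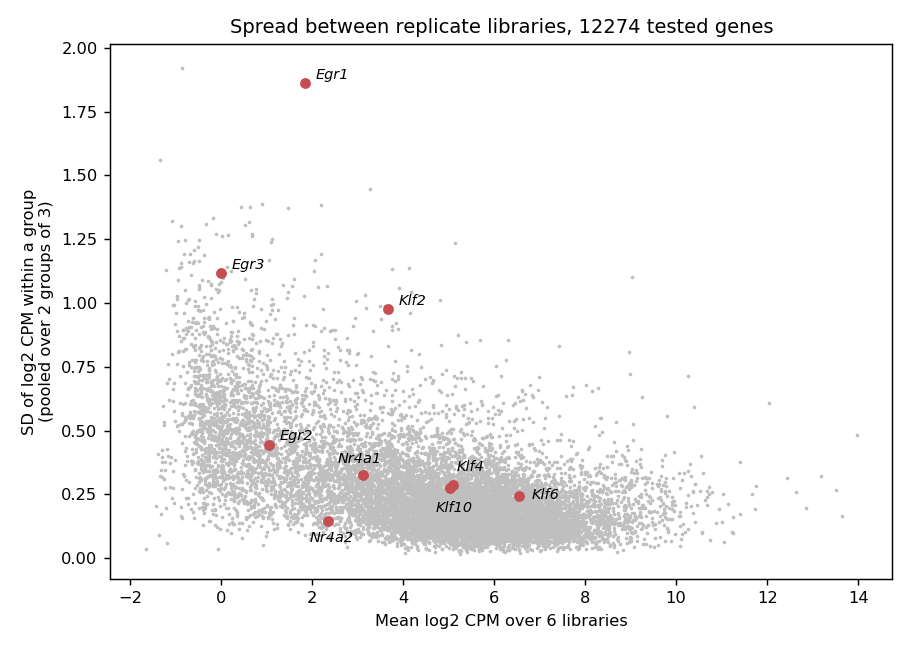
SD of log2 CPM between libraries of a group (pooled over the 2 groups of 3) against mean log2 CPM over the 6 libraries, for the 12274 tested genes in grey and the 9 tested factors in red. Egr1 (1.86) stands near the top of the plot and Egr3 (1.12) and Klf2 (0.98) above the bulk of the genes, while the other 6 lie within it, from 0.15 to 0.44.

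Levels of different genes were compared as CPM per kilobase of exon. With DMSO, Klf6 was highest at 16.7 ± 3.31 (SD, n = 3), followed by Klf10 at 8.64 ± 2.17 and Klf4 at 7.03 ± 1.41. Nr4a1 at 2.34 ± 0.21, Klf2 at 1.95 ± 0.793, Egr1 at 1.27 ± 1.55, Egr2 at 1.07 ± 0.137 and Nr4a2 at 1.03 ± 0.0284 came next, and Egr3 at 0.259 ± 0.199 and Nr4a3 at 0.0906 ± 0.0289 were lowest. Among neighbours in this order, the libraries overlapped except between Klf6 and Klf10, between Klf4 and Nr4a1, and between Nr4a2 and Egr3. With SKI-II the order began with Klf2 at 30.7 ± 20.2, then Klf6 at 28.0 ± 3.78 and Klf4 at 18.3 ± 3.54, so that Klf2 moved from the 5th place to the first, although its libraries overlapped those of Klf6. Klf10 at 7.33 ± 0.873, Nr4a1 at 2.67 ± 0.812, Nr4a2 at 1.45 ± 0.206 and Egr1 at 1.29 ± 1.25 followed. Egr2 at 0.321 ± 0.138, Egr3 at 0.222 ± 0.125 and Nr4a3 at 0.0328 ± 0.0327 were lowest. Here the libraries of Klf2 and Klf6, of Nr4a2 and Egr1, of Egr1 and Egr2, and of Egr2 and Egr3 overlapped, and those of the other neighbours did not.

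On the same scale the 4 KLF genes together stood at 29.3, 33.1 and 40.6 with DMSO and at 90.7, 104 and 57.8 with SKI-II. All SKI-II sums were above the DMSO sums. Klf2 made up 9.72%, 4.89% and 3.38% of the KLF sum with DMSO and 37.2%, 47.1% and 15.7% with SKI-II, a larger share in every SKI-II library. Klf10 made up 26.2%, 21.4% and 27.4% with DMSO and 8.74%, 7.42% and 11.0% with SKI-II, a smaller share in each, though its own level did not pass the test. The share of Klf4 lay between 18.5% and 22.8% with DMSO and between 18.6% and 27.3% with SKI-II. The sum of the EGR genes was 2.60 ± 1.74 with DMSO and 1.84 ± 1.47 with SKI-II, and that of the NR4A genes was 3.46 ± 0.247 and 4.15 ± 0.669 (SD, n = 3 each). In each DMSO library the KLF sum was the largest of the 3 families, and so it was in each SKI-II library.

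**Figure D4:**
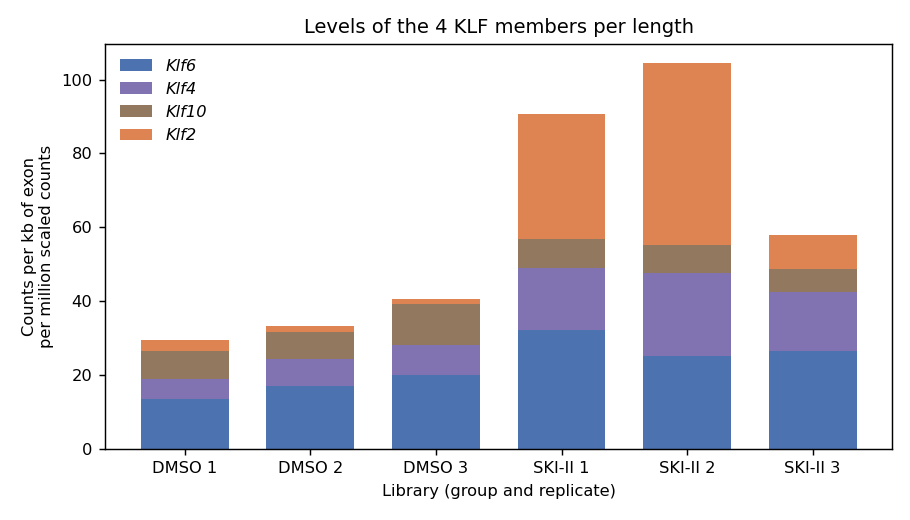
Levels of the 4 KLF genes, in CPM per kilobase of exon, stacked in each of the 6 libraries. The stacks reach 29.3 to 40.6 with DMSO and 57.8 to 104 with SKI-II, and the Klf2 segment (orange) grows from at most 9.72% of the stack to 15.7% or more.

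The genes closest in pattern to each factor were sought among the 10327 tested genes whose mean was 50 normalized counts or more. The measure was the root mean square difference of log2 CPM over the 6 libraries after centring each gene. For Klf2 the closest was Gpr84, a receptor for medium-chain fatty acids, at a difference of 0.29, followed by Mir22hg at 0.37. Gpr84 stood at 107, 39.2 and 39.6 normalized counts with DMSO and 1195, 1220 and 372 with SKI-II, so it shared the low value of SKI-II replicate 3 with Klf2. Klf4 was closest to Eef1akmt3 (0.11) and Yipf2 (0.13), Klf6 to Amz1 (0.02) and Ss18l2 (0.06), and Klf10 to Gm1821 and Pgam1 (0.10 each). Egr2 was closest to Kcnk6, a potassium channel gene, and Paqr7 (0.14 each), and Egr3 to Firre (0.19) and Rgs11 (0.26). Kcnk6, at 586, 503 and 589 normalized counts with DMSO and 180, 207 and 86.4 with SKI-II, was lowest in the same library as Egr2. Nr4a1 was closest to 2410015M20Rik (0.09) and Timm8b (0.11), and Nr4a2 to Mrpl35 and Hspbap1 (0.05 each). Egr1 had the most distant nearest gene, the chemokine gene Ccl2 at 0.74, with 210, 51.8 and 31.7 normalized counts with DMSO and 60.4, 155 and 39.9 with SKI-II, and then mt-Cytb at 0.94. Ccl2 was highest in the same library as Egr1 within each group. Genes of like pattern were picked over these same 6 libraries, so a shared high or low library follows from the choice. Among the factors themselves, the nearest to Nr4a2 was Klf6 at 0.24, the nearest to Nr4a1 was Klf10 at 0.37, the nearest to Klf4 was Klf6 at 0.39, and the nearest to Klf2 was Klf4 at 1.40.

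Among KLF paralogs of the 10 factors, some rose, some fell and some did not pass the test. Both EGR corepressor genes were lower, and no receptor partner passed the test. Of 19 listed paralogs, corepressors and receptor partners, 11 were tested, of which 3 rose and 4 fell (63.6% called, against 38.0% of all genes), with a median log2 fold change of -0.23. Without DMSO replicate 2 the called genes of this list numbered 4, and without SKI-II replicate 1 also 4. Nab1 fell from 1755 ± 181 to 1193 ± 54.0 normalized counts (SD, n = 3 each), a log2 fold change of -0.56 (adjusted p = 0.00554, edgeR's quasi-likelihood test). Nab2 went from 587 ± 129 to 374 ± 104, with -0.65 (adjusted p = 0.0424), a call that was lost in 6 of 13 alternatives, among them those without DMSO replicate 1 (adjusted p = 0.125) and without SKI-II replicate 1 (0.142). Of the other KLF genes, Klf3, a repressor, rose from 146 ± 28.5 to 297 ± 56.3 normalized counts (log2 fold change 1.01, adjusted p = 0.00468), and Klf16 fell from 577 ± 94.3 to 360 ± 9.84 (log2 fold change -0.68, adjusted p = 0.00689). Klf8, with a log2 fold change of 0.89 (adjusted p = 0.0221), and Klf9, with -0.71 (adjusted p = 0.0303), passed the test, but the call of Klf8 was lost on leaving out DMSO replicate 2 or either of SKI-II replicates 1 and 2, and that of Klf9 on leaving out any of these or DMSO replicate 3. The remaining called gene, Klf13, rose with a log2 fold change of 0.49 (adjusted p = 0.00701) and is named because it completes the count. Rxra, the retinoid X receptor partner of NR4A proteins, had a log2 fold change of -0.25 (adjusted p = 0.133). Klf15 had no counts with DMSO and 3, 15 and 5 raw counts with SKI-II, too few for the test. Egr4, Klf5, Klf14 and Rxrg were at 0 in all 6 libraries.

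Regulators that act before these genes were close to the background. All 34 listed kinases, DNA-binding factors and cofactors were tested, and 5 rose and 7 fell (35.3% called, against 38.0% of all genes), with a median log2 fold change of -0.06. SRF, the factor of the CArG box, had a log2 fold change of -0.07 in its transcript (adjusted p = 0.655). The largest changes were lower levels of a MEF2 gene and of a deacetylase that binds MEF2. Mef2c fell from 2520 ± 194 to 1090 ± 231 normalized counts (log2 fold change -1.21, adjusted p = 0.000397), and Hdac9 from 1037 ± 46.7 to 401 ± 148 (log2 fold change -1.37, adjusted p = 0.00182; SD, n = 3 each). Crem, a CREB relative that includes repressor forms, rose from 95.9 ± 23.0 to 204 ± 13.4 (log2 fold change 1.08, adjusted p = 0.00414), and Map2k2, the kinase MEK2 before ERK, rose with a log2 fold change of 0.54 (adjusted p = 0.00617). Among the other called genes were Mrtfb, Mapk7 and Crtc1, which rose, and Rps6ka5, Hdac5, Creb1 and Nfatc1, which fell, each by less than 1 on the log2 scale. Without DMSO replicate 2 the count called was 6 in place of 12.

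The other early response genes were mostly higher. Of 44 listed, 40 were tested, of which 24 rose and 2 fell (65% called, against 38.0% of all genes; 60% rose, against 18.4%), and the median log2 fold change was 0.77 against 0.00 for all tested genes. Past a log2 fold change of 1, 16 of the 40 rose, against 8.28% of all tested genes. Past -1, 1 of the 40 fell, against 7.44%. The AP-1 genes Fos and Jun rose, Fos from 84.2 ± 29.0 to 301 ± 51.8 normalized counts (log2 fold change 1.83, adjusted p = 0.000535) and Jun from 1145 ± 73.8 to 2184 ± 604 (log2 fold change 0.93, adjusted p = 0.00402). The largest rises were those of Ptgs2, the inducible cyclooxygenase, from 315 ± 106 to 7211 ± 221 (log2 fold change 4.52, adjusted p = 6.9e-06), and Rhob, a small GTPase, from 92.0 ± 34.6 to 1282 ± 570 (log2 fold change 3.79, adjusted p = 6.96e-05; SD, n = 3 each). Klf2, at 3.96, lay between them. Gadd45b, a stress sensor gene, fell from 550 ± 321 to 138 ± 16.4 (log2 fold change -1.99, adjusted p = 0.00226), and Mcl1, an antiapoptotic gene, had a log2 fold change of -0.43 (adjusted p = 0.0204) that was no longer called when DMSO replicate 3 or either of SKI-II replicates 2 and 3 was left out. Whether the early genes differ from the 9 factors was not tested.

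**Figure D5:**
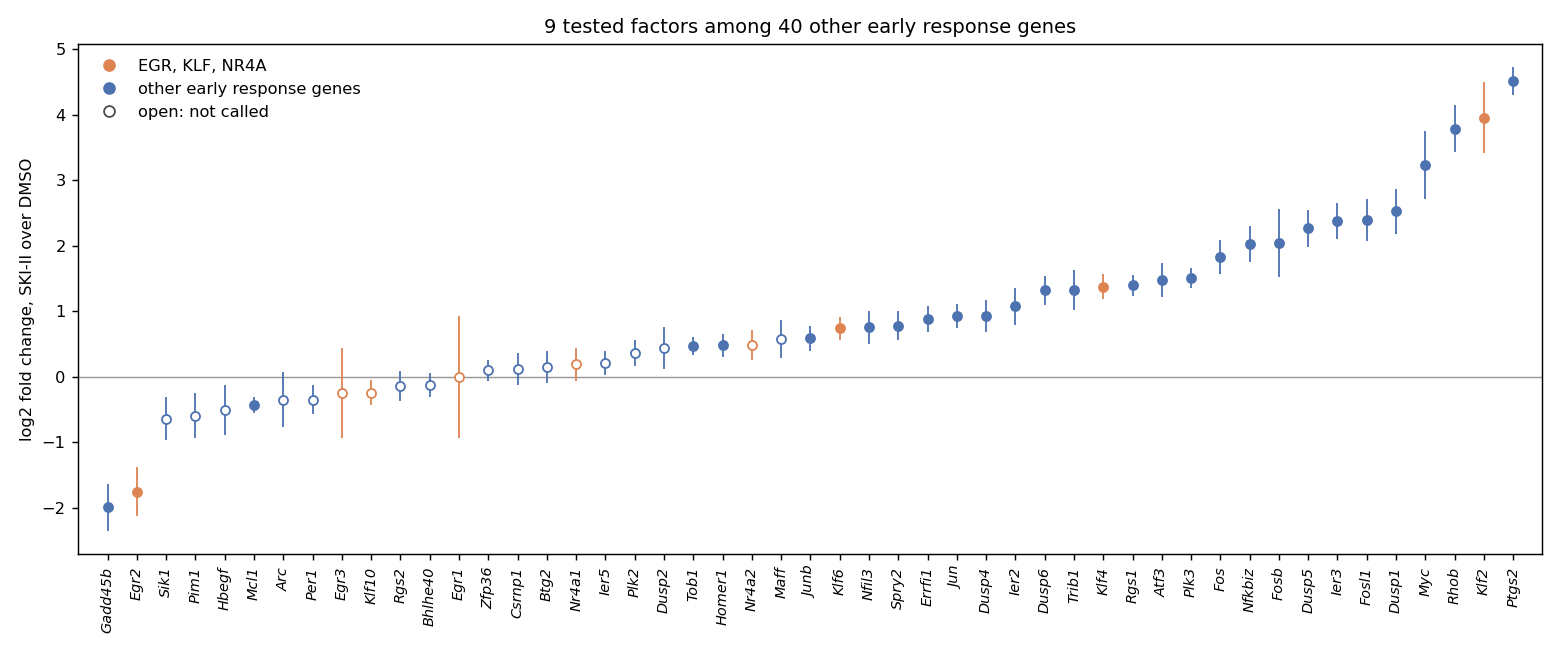
Log2 fold change (SKI-II over DMSO) with its standard error as a bar, for the 9 tested factors (orange) and 40 other early response genes (blue), in order. Filled points are genes called at an adjusted p below 0.05; Klf2 at 3.96 stands between Rhob at 3.79 and Ptgs2 at 4.52, and Egr2 at -1.75 stands next to Gadd45b at -1.99 at the low end.

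Genes reported elsewhere as targets moved both ways. Of 12 listed EGR targets, 10 were tested, of which 3 rose and 3 fell (60% called, against 38.0%), with a median log2 fold change of 0.19. Plau, the urokinase gene, fell with a log2 fold change of -2.76 (adjusted p = 9.51e-06). Csf1, the macrophage growth factor, rose with 2.44 (adjusted p = 7.78e-05) and Tgfb1 fell with -0.88 (adjusted p = 0.00092). Of 10 listed KLF2 and KLF4 targets, 7 were tested, with a median log2 fold change of 0.04. Of the 7, 2 rose and 2 fell (57.1% called, against 38.0% of all genes). With 1 library left out at a time, 3 or 4 were called. S1pr1, a sphingosine 1-phosphate receptor, rose from 355 ± 16.3 to 757 ± 92.8 normalized counts (SD, n = 3 each; log2 fold change 1.09, adjusted p = 0.00032, edgeR's quasi-likelihood test), and Itgb7, an integrin gene, rose with 0.59 (adjusted p = 0.00762). Cdkn2d, a cell cycle inhibitor gene, fell with -0.56 (adjusted p = 0.00985). Mrc1, the mannose receptor of alternative activation, had -1.61 (adjusted p = 0.0209), a call that was lost on leaving out either of DMSO replicates 1 and 3 or either of SKI-II replicates 1 and 2.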

How the data were processed

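The labels and methods give poly(A) selection with oligo(dT) beads, and the submitters' processing notes name Trimmomatic 0.36, STAR 2.5.2b, featureCounts of Subread 1.5.2 and DESeq2. The values analysed are raw read counts per Ensembl gene, which the authors deposited for 6 libraries. Normalized expression values were not used here. Genes were named from GENCODE M21 (48970 of 49315), which also gave positions and exon lengths. Within a group, every pair of libraries differed by more than the sampling noise (over genes with 20 counts or more, chi-square divided by its degrees of freedom was 15.4 to 58.1), and each library was 1 replicate.

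Counts were tested with edgeR 4.0.16 (R 4.3.3), glmQLFit and glmQLFTest, TMM scaling (factors 0.941 to 1.05) and filterByExpr by group (minimum count 10, minimum total 15), and adjusted by Benjamini-Hochberg. The filter left 12274 genes with 99.9% of the counts. The call was an adjusted p below 0.05, and genes were also counted at an absolute log2 fold change above 1. The common coefficient of variation between libraries was 17.5%. Fold changes in means were taken from the fit. The replicate numbers were not taken as pairs. Alternatives were DESeq2 1.42.0, limma-voom (limma 3.58.1), RLE scaling, library size alone, no filter, at least 10 counts in every library, the replicate number as a block, and each library left out. On simulated counts the programs recovered most of the known changes. The simulated spread between libraries depended on level alone and was smaller than that of Egr1, Egr3 and Klf2 here. Promoters are RefSeq sequence, with windows for 27025 symbols.

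The members and gene lists were chosen with earlier results of these data known, and the lists were written from general knowledge. The genes named are all 10 members; in each other list the called genes at either end of the order of log2 fold change, 2 at each end; Nab1, Nab2, Srf, Rxra, Fos and Jun; and for each tested member the 2 genes of most similar pattern. Called genes named beyond this rule (Klf13 and further regulators) and untested genes at or near 0 were chosen after their values were seen. A few genes that this rule picks are not reported here. Figures were drawn with matplotlib 3.10.9.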

Additional observations from a re-analysis of the deposited data

How the results depend on the processing

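The calls of Klf2, Klf4, Klf6 and Egr2 held under all 13 alternatives (DESeq2, limma-voom, RLE scaling, library size alone, no filter, at least 10 counts in every library, the replicate block and each library left out), with adjusted p-values up to 0.0298 in edgeR's quasi-likelihood test (Klf6 without DMSO replicate 2) and up to 0.00707 in limma-voom for Klf2. The number of factors called was 4 in each, and 3 with a log2 fold change beyond 1. With that condition the count over all genes was 1929 of 12274 (15.7%). It was 1 of 11 for paralogs and partners, 3 of 34 for upstream regulators and 17 of 40 for other early genes. For EGR targets it was 3 of 10, and for KLF2 and KLF4 targets 2 of 7. With 1 library left out, the paralogs and partners called numbered 4 to 6, the upstream regulators 6 to 12, and all genes 3273 to 4614. Egr1 changed sign with limma-voom (-0.15), library size alone (-0.03), no filter (-0.00) and the replicate block (-0.00), and ranged from -1.07 to 1.78 with 1 library left out, and no value passed the threshold. In the same way the sign turned for Egr3 (-0.75 to 0.46), Nr4a1 (-0.05 to 0.38), Ccl2 (-0.98 to 1.02), Firre (-0.60 to 0.19), Gm1821 (-0.25 to 0.05) and Timm8b (-0.02 to 0.24), which the test did not call. Same-numbered libraries correlated at 0.246, 0.00994 and 0.458 in their deviations from the group means, so the numbers were not taken to pair the samples, and not every SKI-II library correlated best with its own number. With the replicate block, 5584 genes were called against 4668 and the same number of factors, 3 higher and 1 lower. Depth limits Nr4a3, with 24 and 9 counts over the groups.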
